A study of Mus musculus with 3 samples.

Results

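Splicing factors and other RNA-binding proteins were followed in sorted olfactory sensory neurons with and without overexpression of Tet3, an oxidase of methylated cytosine in DNA. The members are 128 of 34617 gene rows, chosen by name alone, with earlier results of these data known, and without Snrpn. Their symbols match set patterns for the SR protein, hnRNP, Sm and LSm, SF3, U2AF, Prpf, Rbm, Rbfox, Nova, Celf, Elavl, Ptbp and Mbnl families. Some relatives with other symbols were not matched, so the families are not complete. Both RNA libraries came from the main olfactory epithelium of mice aged 4 weeks, with 1 library per group. The mOSN library was made from EGFP-positive cells of C57BL/6J mice carrying OMP-ires-EGFP, in which the reporter is made along with Omp, the olfactory marker protein. The O/Tet3 library was made from sorted cells of FVB mice carrying OMP-tTA and tetO-Tet3-GFP, in which a transactivator made at Omp, which marks mature olfactory sensory neurons, switches on the Tet3-GFP transgene. The number of animals per library is not stated in the labels. Genotype, reporter, strain and library differ together and cannot be told apart, and no difference below has a replicate check or a test.

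Introns are removed from pre-mRNA by the spliceosome, which assembles anew on each intron from small nuclear ribonucleoprotein particles (snRNPs) and many further proteins. Sm and LSm proteins form rings around the small nuclear RNAs, SF3 and U2AF proteins recognise the branch point and the end of the intron, and Prpf proteins belong to the tri-snRNP and its activation. SR proteins mostly favour and hnRNPs often oppose the use of nearby exons, while the Rbfox, Nova, Celf, Elavl, Ptbp and Mbnl families set exon choice by cell type, in neurons above all.

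Values are the deposited expression values after undoing their log2(value + 1) form. A log2 ratio is the deposited O/Tet3 value minus the mOSN value on that log2(value + 1) scale, where low genes differ by less than in their plain values, and a fold is a ratio of plain values. Rows that reached a value of 1 in at least 1 library were compared, and were counted as higher or lower from a log2 ratio of 1 in either direction. Tet3 itself had values of 3.72 (mOSN) and 145 (O/Tet3), and Omp, at which the reporter and the transactivator are made, 298 and 139. Of 13 mature olfactory neuron markers, 12 were lower in O/Tet3 and 0 higher (median log2 ratio -2.10), and their values summed to 3583 (mOSN) and 807 (O/Tet3), none of them at 0. The immature neuron markers summed to 129 and 163, with 3 of 10 higher and 2 lower, and the progenitor markers to 20.6 and 37.6. Sustentacular markers summed to 26.9 and 9.86, with 1 of 4 compared lower and 0 higher. The lower one, Ugt2a1 at 15.6 and 2.53, held most of that difference. Basal, gland and microvillous markers summed to 3.91 and 3.51, with 1 of 3 higher (Pou2f3, at 0.582 and 2.903) and 2 lower (Ascl3 and Cftr). Glia, blood and vessel markers summed to 67.5 and 41.1, mostly from haemoglobin genes, with 1 of 5 compared lower (Fabp7, at 4.78 and 0.0607) and 0 higher. Of these markers, Cyp1a2 (sustentacular), Krt5, Krt14, Trp63, Icam1, Bpifb1, Ascl3 and Cftr (basal, gland and microvillous) and Sox10, S100b and Cdh5 (glia and vessel) were listed at 0 in O/Tet3, and Icam1, Sox9, Cdh5 and Cdk1 in mOSN. The part of these markers in the results was not tested, and fewer cells of a type and less RNA per cell cannot be told apart.

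Most compared splicing and RNA-binding genes were within 2-fold of value + 1, and 8 of the 15 that were higher in O/Tet3 encode Snrp or LSm proteins. Of the compared Snrp genes 5 of 11 were higher, and of the LSm genes 3 of 9, beside 16.5% of all compared rows. Of these, Lsm10 reached a value of 1 in O/Tet3 alone, so it could not have been counted as lower. The same holds for Celf6 among the 15. Where each library had to reach 1, both were left out and 13 of 111 members were higher. Of the 128 members, 114 were compared, and all 114 were above 0 in both libraries. Of these 114, 15 were higher in O/Tet3 (13.2%), where 16.5% of all 12943 compared rows were higher, and 2 were lower (1.75%), where 12.0% of all compared rows were lower. The remaining 97 were within 2-fold of value + 1. The median log2 ratio was 0.27 over the members and 0.21 over all compared rows. The middle 50% of the members lay between -0.11 and 0.69, and that of all compared rows between -0.39 and 0.75. Among rows that reached a value of 5, 13.5% of 104 members were higher and 1.92% lower, against 19.6% and 11.1% of 7149 rows. Across genes, the Pearson correlation of the log2 values of the 2 libraries was 0.89 over the 114 members and 0.75 over all compared rows, a description in which all points share the same 2 libraries. The share of higher members was thus near that of all rows, and the share of lower members was below it. The 9934 rows at or above 1 in each library had a median log2 ratio of 0.21. Subtracting this shift left 9 members higher and 4 lower, where 11.3% and 15.1% of all compared rows were higher and lower. With a bound of 1.5-fold in place of 2-fold, 44 members were higher and 6 lower, against 32.3% and 19.6% of all compared rows. With a bound of 3-fold, 3 were higher and 2 lower, against 5.76% and 5.20%.

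**Figure D1:**
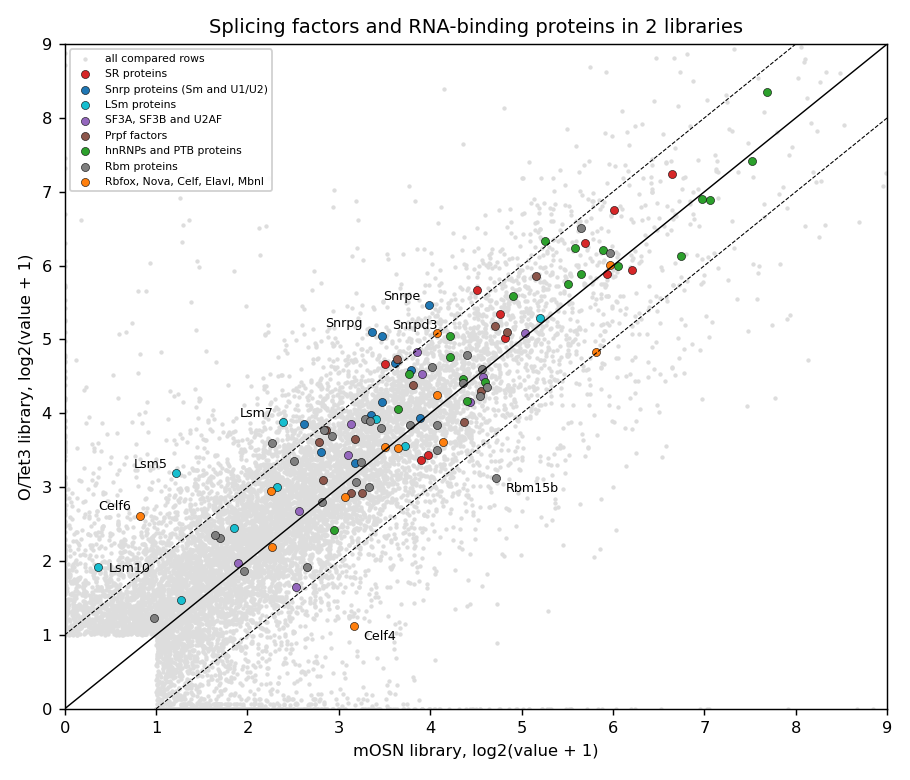
Log2(value + 1) of each compared row in the mOSN library (horizontal axis) and the O/Tet3 library (vertical axis), with members coloured by family, all other compared rows in grey, the line of equal values solid and the bounds of a 2-fold difference of value + 1 dashed; rows above 9 on either axis are not drawn. Most of the 114 members lie between the dashed lines, with 15 above and 2 below.

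The 8 protein families differed in where their members lay. The counts given for each family below stand beside 16.5% higher and 12.0% lower among all compared rows. Median log2 ratios were 0.80 for the Snrp proteins, 0.60 for the LSm proteins, 0.58 for the SR proteins and 0.48 for the Prpf factors. They were 0.24 for the hnRNPs and PTB proteins, 0.15 for the Rbm proteins, 0.10 for SF3 and U2AF and -0.01 for the neuronal and tissue-specific regulators. After the shift of all rows was subtracted, the first 4 were 0.59, 0.40, 0.38 and 0.27, the hnRNP median was 0.03, and the medians of the Rbm proteins (-0.06) and of SF3 and U2AF (-0.11) changed sign.

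**Figure D2:**
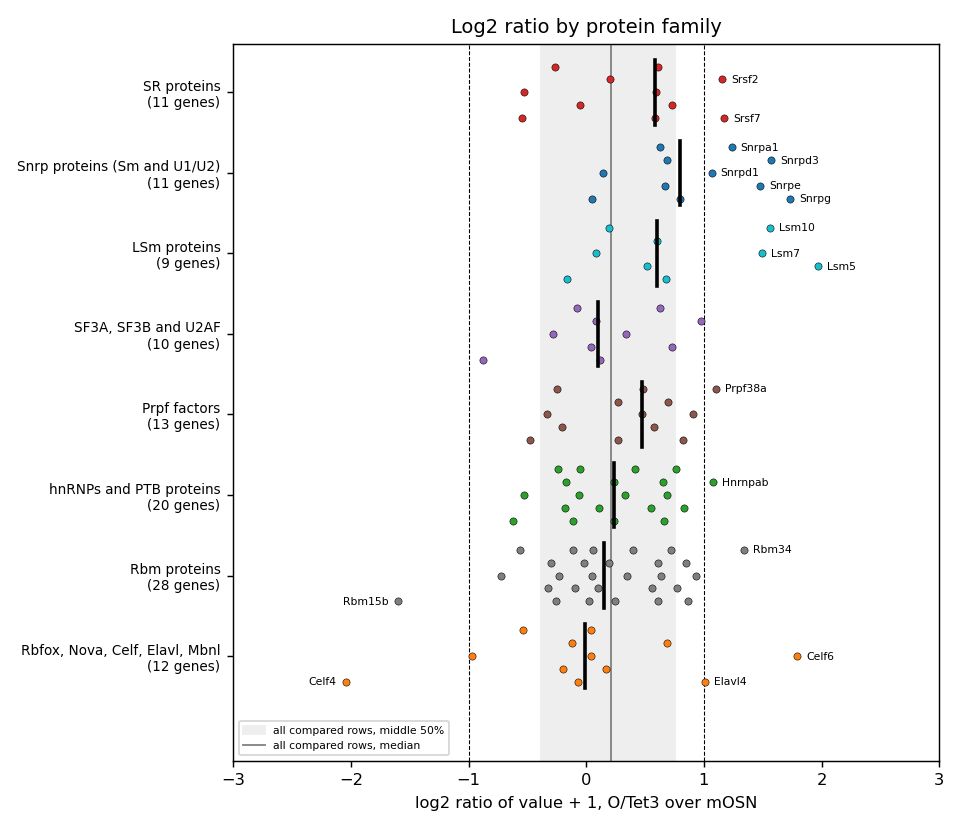
Log2 ratio of value + 1 (O/Tet3 over mOSN) of the 114 compared members, 1 point per gene, in rows by protein family; black bars are family medians, the grey band and line are the middle 50% and the median of all 12943 compared rows, and dashed lines mark a 2-fold difference of value + 1. All 11 Snrp proteins lie to the right of 0, though Snrpa and Snrpb do not once the shift of all rows is subtracted, and the lower members Celf4 and Rbm15b lie far from the rest of their families.

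The Sm core proteins, which form the 7-membered ring on the U1, U2, U4 and U5 small nuclear RNAs, had unequal log2 ratios. Of the 7, 4 were higher in O/Tet3, beside 16.5% of all compared rows. Snrpg was listed at 9.29 in the mOSN and 33.2 in the O/Tet3 library, which is 3.58-fold higher (log2 ratio 1.73). Snrpd3 was at 10.1 and 31.9 (1.57), and Snrpe at 14.9 and 43.2 (1.48). Snrpd1 was at 11.2 and 24.6 (1.07). These 4 ring subunits passed the 2-fold bound, Snrpd1 only narrowly and not once the shift of all rows was subtracted. The other ring subunits stayed within it, Snrpf at 12.8 and 23.0, Snrpd2 at 9.19 and 14.7, and Snrpb at 13.8 and 14.3. The ratio of Snrpb was 0.05, and -0.16 after the shift of all rows was subtracted. In mOSN the 7 ring genes lay between 9.19 and 14.9, and in O/Tet3 between 14.3 and 43.2. Partners within the ring differed in their folds. The fold of Snrpd3 was 3.06 times that of Snrpb, with which its protein forms a dimer. The fold of Snrpg was 2.00 times, and that of Snrpe 1.62 times, the fold of Snrpf, the other protein of their trimer. The fold of Snrpd1 was 1.37 times that of its partner Snrpd2. Sm genes and several hnRNP genes are known to have processed pseudogenes, and with the authors' treatment of reads shared with such copies not given in the sources used here, these values are uncertain to that extent.

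Of the Snrp proteins specific to U1 or U2, Snrpa1, the U2 A′ protein, was higher, at 5.15 and 13.5 (log2 ratio 1.24). Its partner Snrpb2, the U2 B″ protein, was at 10.1 and 16.8, within 2-fold of value + 1. The U1 proteins were at 5.98 and 10.1 for Snrpc and at 8.06 and 9.03 for Snrpa, which binds a stem-loop of U1 RNA.

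The start regions of 5 of the 7 Sm ring genes are shown because the products of these genes stand in a fixed ratio in the ring while their log2 ratios were unequal. They are the 250 bases before the annotated start, from the RefSeq promoter table (build GRCm38.p6), written 5′ to 3′ along the gene; the deposited table was made on another build, mm9. The table held a start region for 107 of the 128 members, and exactly 1 for 82 of them, of which 73 were compared. Capitals mark the motif CCGGAA, a form of the GGAA-containing sites of ETS family transcription factors, or TTCCGG, the same motif on the other strand. The first 3 genes passed the 2-fold bound and the last 2 did not. Snrpd1, which passed it, and Snrpb, which did not, are not shown, so the set is not complete.
Snrpd3, chr10:75517792-75518041, plus strand: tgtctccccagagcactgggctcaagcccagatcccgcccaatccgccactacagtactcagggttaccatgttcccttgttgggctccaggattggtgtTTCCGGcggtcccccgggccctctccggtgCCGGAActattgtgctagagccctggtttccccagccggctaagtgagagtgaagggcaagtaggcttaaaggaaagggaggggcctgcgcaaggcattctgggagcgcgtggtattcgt
Snrpe, chr1:133610281-133610530, minus strand: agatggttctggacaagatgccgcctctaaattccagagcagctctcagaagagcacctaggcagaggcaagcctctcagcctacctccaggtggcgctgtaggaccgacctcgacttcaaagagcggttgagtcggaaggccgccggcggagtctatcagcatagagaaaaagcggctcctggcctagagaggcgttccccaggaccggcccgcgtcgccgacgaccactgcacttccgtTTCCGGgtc
Snrpg, chr6:86371290-86371539, plus strand: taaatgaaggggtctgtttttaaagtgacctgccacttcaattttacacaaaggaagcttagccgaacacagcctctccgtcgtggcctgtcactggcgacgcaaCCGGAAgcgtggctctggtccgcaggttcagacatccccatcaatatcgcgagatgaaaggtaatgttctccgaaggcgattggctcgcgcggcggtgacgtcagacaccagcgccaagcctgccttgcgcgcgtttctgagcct
Snrpf, chr10:93589659-93589908, minus strand: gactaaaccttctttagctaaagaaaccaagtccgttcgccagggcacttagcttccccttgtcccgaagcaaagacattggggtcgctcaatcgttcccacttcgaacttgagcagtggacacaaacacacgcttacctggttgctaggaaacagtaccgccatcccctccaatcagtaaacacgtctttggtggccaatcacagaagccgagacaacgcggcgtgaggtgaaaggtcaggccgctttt
Snrpd2, chr7:19149588-19149837, plus strand: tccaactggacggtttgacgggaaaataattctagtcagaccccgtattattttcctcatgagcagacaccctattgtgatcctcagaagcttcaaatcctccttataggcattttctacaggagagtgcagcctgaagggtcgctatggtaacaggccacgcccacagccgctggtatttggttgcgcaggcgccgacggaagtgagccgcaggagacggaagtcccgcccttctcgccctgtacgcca

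The motif was present in the regions of Snrpd3, with 2 matches, and of Snrpe and Snrpg, with 1 match each. In Snrpe it began 9 bases before the start. The regions of Snrpf and Snrpd2 held no match to these letters in these windows, and other forms of GGAA-containing sites were not searched. Both printed regions do hold GGAA, within ACGGAAGT in Snrpd2 and AGGAAAC in Snrpf. The difference between the shown genes thus holds for the marked letters alone. CCGGAA or TTCCGG was found in 5 of the 8 Snrp genes with 1 region (62.5%), in 27 of the 73 compared members (37.0%), in 23.8% of the 6471 compared rows with 1 region and in 12.2% of all 22862 such regions. Among the 11 higher members with 1 region, 8 held it, namely Snrpd3, Snrpe, Snrpg, Lsm5, Srsf2, Srsf7, Hnrnpab and Rbm34. These 11 were picked by their ratios, and the share among all higher compared rows was not computed. The median log2 ratio was 0.67 over the 27 members with the motif and 0.30 over the 46 without, and 0.33 and 0.14 over the compared rows with and without it. Medians for the other motifs follow in the next paragraph, and the part of any motif in the ratios was not tested. The 73 members with 1 region had a median of 0.48, above the 0.27 of all 114, so they do not stand for the whole set. These are matches of letters, not sites shown to be bound.

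Other motifs were searched on both strands in the same windows. The CCAAT box (CCAAT) was in 48.0% of the 73 members and 37.2% of the compared rows, and in 10 of 15 hnRNP and PTB genes. The GC box (GGGCGG) was in 58.9% of the members and 58.8% of the compared rows, and the TATA box (TATAAA) in 9.59% and 7.67%. The letters TGACG, which also lie inside the cAMP response element TGACGTCA, were in 37.0% and 28.8%, and the E-box (CACGTG) in 8.22% and 8.19%. The full cAMP response element was in 1 member, Snrpg and in 3.17% of the compared rows. The YY1 motif (AAGATGGC) was in 4.11% and 2.32%. Of the 11 higher members with 1 region, 7 held the CCAAT box and 7 the GC box. Apart from the full cAMP response element, members with each of these motifs had a lower median log2 ratio than members without it. It was -0.09 (7 genes) and 0.55 (66) for the TATA box and -0.24 (3) and 0.51 (70) for YY1. For the CCAAT box it was 0.41 and 0.52, for the GC box 0.41 and 0.58, for TGACG 0.41 and 0.55. For the E-box it was 0.24 and 0.56. Over the compared rows, only the TATA box (-0.10 and 0.20) and the full cAMP response element (0.15 and 0.20) went that way. The members' regions held a median of 19 CpG dinucleotides, those of the compared rows 16, and those of all genes 5. Among the compared rows, 485 of the 1602 with up to 9 CpG were lower in O/Tet3. Of those with 10 to 19 CpG, 152 of 2549 were lower, and of those with 20 or more, 171 of 2320. Among the 73 members, 0 of 4 with up to 9 CpG were lower, 0 of 37 with 10 to 19 and 1 of 32 with 20 or more. The part of CpG content in the ratios was not tested.

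LSm proteins form related rings, LSm2 to LSm8 on U6 RNA in the nucleus and LSm1 to LSm7 in mRNA decapping in the cytoplasm. On the value + 1 scale Lsm5 had the largest ratio of all 114 members, at 1.33 in mOSN and 8.12 in O/Tet3, a 6.10-fold difference (log2 ratio 1.97). Lsm7 was at 4.22 and 13.7 (1.49). The other shared ring subunits were within 2-fold of value + 1, Lsm2 at 2.61 and 4.48, Lsm3 at 4.01 and 6.99, Lsm4 at 9.58 and 14.1, and Lsm6 at 35.8 and 38.0. Lsm1, which belongs to the decapping ring alone, was at 1.42 and 1.77. In the U7 snRNP, which processes replication-dependent histone pre-mRNA, LSm10 and LSm11 take the places of the Sm proteins D1 and D2. Lsm10 was at 0.291 and 2.80 (log2 ratio 1.56), a plain fold of 9.63, above the 6.10 of Lsm5, and was compared through O/Tet3 alone. Lsm11 was at 0.516 and 0.407, below the floor of 1 in both libraries. Lsm12, which is not a ring subunit, was at 12.2 and 10.8.

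**Figure D3:**
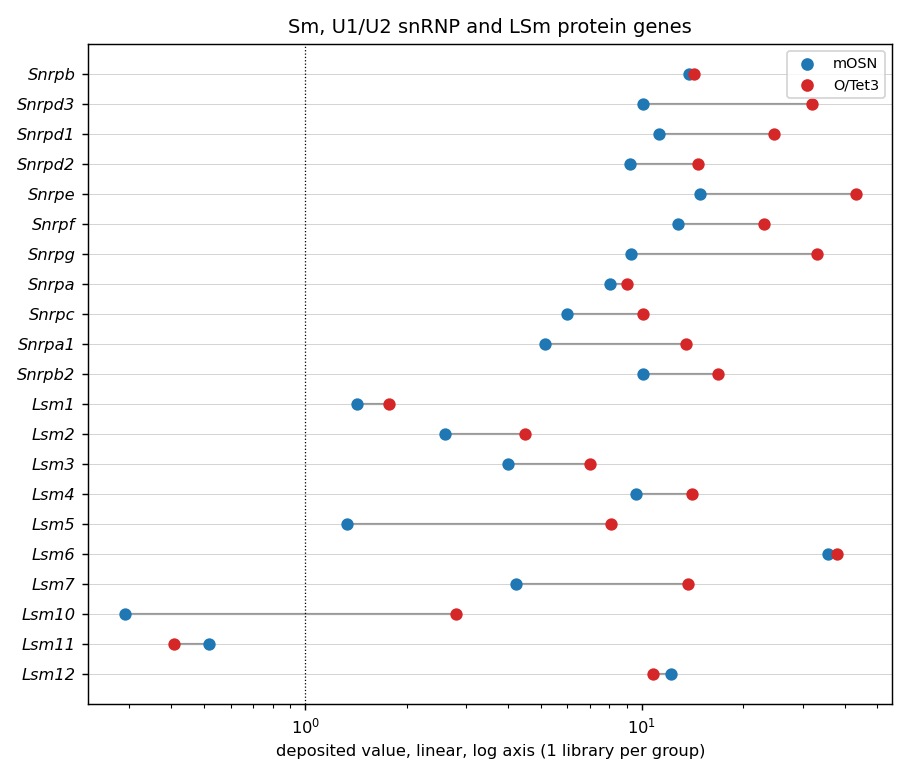
Deposited values on a log axis of the Sm, U1 and U2 snRNP and LSm protein genes in mOSN (blue) and O/Tet3 (red), 1 library each, joined by a line per gene, with a dotted line at a value of 1. Snrpb and Lsm6 have nearly equal values in both libraries, while Snrpd3, Snrpe, Snrpg, Lsm5, Lsm7 and Lsm10 lie to the right in O/Tet3.

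The SF3A and SF3B complexes, which bind the branch point as part of the U2 snRNP, and U2AF held no higher or lower member. U2af1, which recognises the AG at the end of the intron, was just under the bound, at 13.5 and 27.5 (log2 ratio 0.97), and was counted as higher with a smaller pseudocount or none. U2af2, which binds the polypyrimidine tract next to it, was at 20.6 and 16.8, so that the fold of U2af1 was 2.50 times that of its partner. Within SF3A, Sf3a3 was at 14.0 and 22.1, Sf3a1 at 7.58 and 9.85, and Sf3a2 at 4.76 and 2.14 (-0.87). In these values Sf3a2 was 2.22-fold lower, and it was counted as lower with a smaller pseudocount or none. Of SF3B, Sf3b1, which holds the branch point adenosine, was at 31.9 and 32.9, Sf3b2 at 22.8 and 21.6, and Sf3b3 at 7.76 and 13.5. Sf3b4 was at 2.72 and 2.93 and Sf3b5 at 4.89 and 5.38.

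Of the 13 Prpf factors, 1 was higher and 0 lower. Prpf38a, needed for activation of the spliceosome, was at 11.4 and 25.8 (log2 ratio 1.11). Prpf31, a tri-snRNP protein, at 6.28 and 12.6 (0.90, counted as higher with no pseudocount), and Prpf19, the ubiquitin ligase of the complex named after it, at 5.90 and 11.2 (0.82), lay below the bound. Prpf8, the scaffold at the catalytic centre, was at 19.6 and 13.8 (-0.48). The tri-snRNP proteins Prpf3 at 7.76 and 6.60 and Prpf4 at 8.55 and 6.60, and the kinase Prpf4b at 22.5 and 18.8, were also on the negative side, and Prpf6 at 13.0 and 19.9 on the positive side. Prpf38b was at 27.5 and 33.4 and Prpf18, which acts in the second catalytic step, at 25.1 and 35.3. Prpf39 was at 8.02 and 11.6, and Prpf40b at 6.11 and 7.59.

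Of the 12 SR family rows, 11 were compared, 2 were higher (18.2%) and 0 lower, beside 16.5% and 12.0% of all compared rows. Srsf2 (SC35) was at 21.9 and 49.997 (log2 ratio 1.16) and Srsf7 (9G8) at 10.3 and 24.5 (1.17). The 3 SR genes with the highest mean of the 2 listed values were within 2-fold of value + 1 and lay on both sides of 0, Srsf1 at 99.0 and 149, Srsf5 at 63.7 and 107, and Srsf3 at 72.9 and 60.4. Srsf11 was at 50.7 and 77.8, Srsf6 at 26.2 and 39.8, and Srsf10 at 27.1 and 31.4. Srsf4 at 13.9 and 9.32 and Srsf9 at 14.8 and 9.80 had ratios of -0.53 and -0.55. The SR-related gene listed as Sfrs18 (Pnisr in RefSeq) was at 60.3 and 58.1.

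The hnRNPs are abundant proteins that coat nascent transcripts. Of 20 hnRNP and PTB genes, 1 was higher and 0 lower, with log2 ratios from -0.62 to 1.08. The higher gene was Hnrnpab, at 37.1 and 79.3. Hnrnpk was at 205 and 325 (0.66), Hnrnpa2b1 at 183 and 169, Hnrnpu at 133 and 117, and Hnrnph1 at 124 and 119. Hnrnpm, at 106 and 68.9, had the most negative ratio of the family (-0.62). Hnrnpa1 was at 12.6 and 22.1 (0.76), Hnrnpa3 at 29.1 and 47.3, Hnrnpc at 47.0 and 74.5, and Hnrnph3 at 17.6 and 32.0 (0.83). The remaining hnRNP genes had ratios between -0.24, for Hnrnpul1, and 0.55, for Hnrnph2. Ptbp1, the PTB protein of most non-neuronal cells and progenitors, was at 6.69 and 4.33 (-0.53). Ptbp2, its neuronal paralog, was at 19.5 and 21.2, so that the fold of Ptbp2 was 1.68 times that of Ptbp1.

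Among the neuronal and tissue-specific regulators, 2 of 12 compared genes were higher (16.7%) and 1 lower (8.33%), with some paralogs on opposite sides. Of all compared rows, 16.5% were higher and 12.0% lower, so the share of higher genes was near that of all rows. Celf4, a neuronal Celf protein, had the lowest ratio of all 114 members, at 7.995 in mOSN and 1.18 in O/Tet3, which is 6.76-fold lower (log2 ratio -2.04). Celf6 was at 0.767 and 5.13, 6.68-fold higher (1.79), and was compared through O/Tet3 alone. Celf3 was at 3.79 and 6.70 (0.68), Celf1 at 15.9 and 17.9, and Celf2 at 3.80 and 3.58. Elavl4 (HuD), an RNA-stabilising neuronal Hu protein, was just above the bound, at 15.9 and 33.0 (1.01). Its paralog Elavl3 (HuC) was just inside it, at 55.1 and 27.6 (-0.97), so that the fold of Elavl4 was 4.16 times that of Elavl3. Elavl2 was at 10.3 and 10.6, and Elavl1 (HuR), which is expressed in most cells, at 7.36 and 6.28. The muscleblind genes were at 61.3 and 63.2 for Mbnl2 and at 16.7 and 11.2 for Mbnl1. Rbfox2 was at 11.6 and 10.5.

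Beside these ratios, the immature neuron markers Gap43 at 6.41 and 34.8 and Sox11 at 0.383 and 6.05 were higher, while Dpysl5 at 7.98 and 1.46 and Hdac9 at 18.6 and 8.55 were lower. Their part in the values of the Celf and Elavl genes was not tested.

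**Figure D4:**
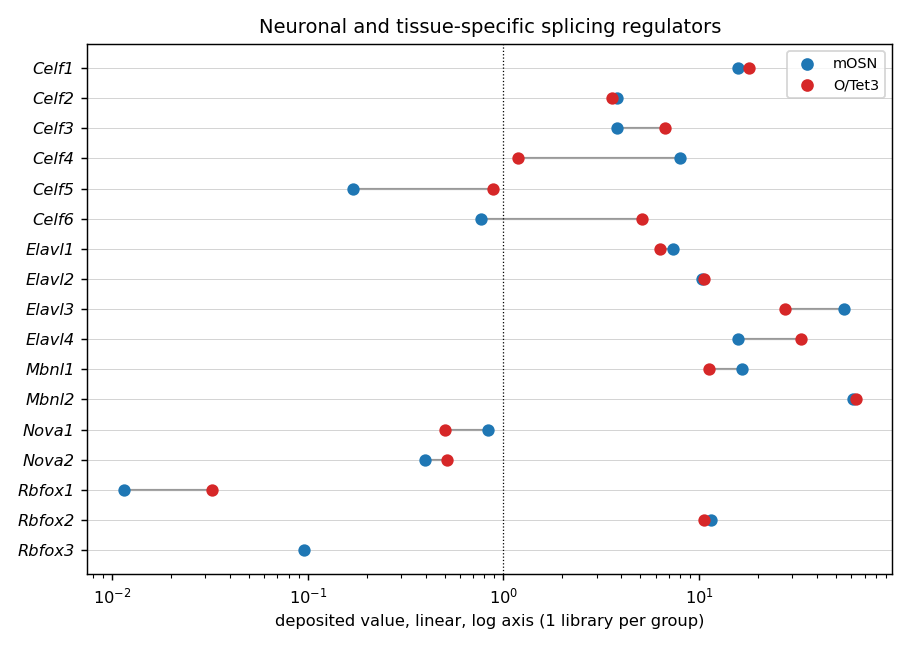
Deposited values on a log axis of the 17 Celf, Elavl, Mbnl, Nova and Rbfox members in mOSN (blue) and O/Tet3 (red), 1 library each, with a dotted line at a value of 1. Rbfox3 is listed at 0 in O/Tet3 and has 1 point. Celf4 and Elavl3 have the red point on the left, and Celf6 and Elavl4 on the right.

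Of 35 Rbm rows, a group named for its RNA recognition motif and diverse in function, 28 were compared, 1 was higher and 1 lower. Rbm15b, a partner of the m6A methyltransferase complex, was at 25.4 and 7.73, 3.29-fold lower (log2 ratio -1.60). Its paralog Rbm15 was at 2.12 and 4.12 (0.72). Rbm34 was at 3.80 and 11.1 (1.34). The 3 Rbm genes with the highest mean of the 2 listed values were the cold-inducible Rbm3 at 49.1 and 90.1 (0.86), Rbm39 at 61.6 and 70.7, and Rbm6 at 20.1 and 26.7. Rbm8a (Y14), a core protein of the exon junction complex, was at 6.59 and 11.9 (0.77), and Rbm7, of a complex that targets RNA to the nuclear exosome, at 6.16 and 12.7 (0.94), which was counted as higher with a smaller pseudocount or none. The splicing regulators Rbm5 at 15.2 and 23.7, Rbm10 at 8.44 and 9.10, Rbm17 at 23.6 and 19.6 and Rbm25 at 22.7 and 23.2 were within 2-fold of value + 1. Rbm42, at 5.27 and 2.79, had a ratio of -0.73. The ratios of the other compared Rbm genes lay between -0.57, for Rbm28, and 0.85, for Rbm12. Rbm19, at 0.974 and 1.33, was compared through O/Tet3 alone.

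The other 14 members stayed below a value of 1 in both libraries and were not compared. Rbfox3, which encodes the neuronal nuclear antigen NeuN, was at 0.0955 and listed at 0, and Rbfox1 at 0.0115 and 0.0324. Nova1 was at 0.833 and 0.501, and Nova2 at 0.399 and 0.514. Celf5 was at 0.169 and 0.888, the highest value among them. Srsf12 was at 0.366 and 0.694, Rbm38 at 0.152 and 0.677, Rbm24 at 0.0205 and 0.361, and Rbm47 at 0.402 and 0.0832. Rbm20, Rbm44 and Rbm46 were each listed at 0 in 1 library and at most at 0.0441 in the other, and Rbm31y was listed at 0 in both. With Lsm11, given above, these make up the 14. A given value rests on fewer reads in O/Tet3 than in mOSN: over 2687 low rows the most frequent ratio put 1 read at a 1.88-fold larger value in O/Tet3. For a gene as long as an odorant receptor gene a value of 1 then corresponds to about 19.97 reads in O/Tet3 and 37.6 in mOSN, an estimate from steps in the values, since read counts are not in the file. The lowest of these members thus rest on few reads.

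Some members share their place in the genome with other genes, and whether the counting used strand is not stated in the labels or the file. In the RefSeq annotation of GRCm38.p6, 46 of the 128 members overlap another gene, among them 6 of the 17 higher or lower members. Rbm15b overlaps Dcaf1, listed here as Vprbp at 10.2 and 6.84. Srsf2 overlaps Mfsd11, at 6.21 and 10.4, Hnrnpab overlaps Phykpl, listed as Agxt2l2 at 4.01 and 3.79, and Prpf38a overlaps Orc1, at 0.408 and 0.0700. Snrpd3 and Celf4 overlap unnamed gene models only. Reads of overlapping genes could not be separated.

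Other genes of RNA processing were counted in 8 lists of genes that are not members. These lists hold some relatives of the named families, such as further Mbnl, hnRNP and LSm-like genes, whose symbols the name rule did not match. Pooled, 20 of 224 compared genes were higher (8.93%) and 5 lower (2.23%), and the median ratio was 0.22, beside 16.5% and 12.0% of all compared rows. Their ratios ran from -1.47 to 6.43. Of 24 factors of the Prp19 complex and the catalytic steps, 4 were higher (median 0.49), with Dhx35 at 1.39 and 6.62, Bcas2 at 23.9 and 64.8, Crnkl1 at 9.16 and 22.6 and Cdc40 at 3.03 and 7.22. Of 12 genes for the assembly of Sm rings, 3 were higher (median 0.52). These were the arginine methyltransferases Prmt5, which modifies Sm proteins, at 6.19 and 15.9, and Prmt7 at 1.08 and 3.77, and Sip1, an earlier symbol of Gemin2, at 0.750 and 2.87. Of 29 further snRNP proteins, 2 were higher (median 0.29), Snrnp25 of the minor spliceosome at 1.81 and 6.50 and Zrsr2, which reads the end of minor introns, at 12.0 and 27.7. None of these 3 lists held a lower gene.

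The 26 compared SR protein kinases and SR-related factors held 0 higher and 0 lower genes, with ratios from -0.96 to 0.72 and a median of 0.15, or -0.06 after the shift of all rows was subtracted. Of 24 exon junction and export factors, 3 were higher, Thoc6 at 1.85 and 7.23, Thoc3 at 1.87 and 5.03 and Sarnp at 16.2 and 34.7 (median 0.33). Of 18 cleavage and polyadenylation factors, Nudt21 was higher, at 8.88 and 19.2 (median 0.26). Of 28 decapping and decay factors, Xrn2, the nuclear exonuclease of transcription termination, at 11.2 and 26.0 and Exosc1 at 3.14 and 7.79 were higher (median 0.22). Of 65 other RNA-binding proteins, 5 were higher and 5 lower (median -0.07). The higher ones included Dazl, known from germ cells, at 0.135 and 97.1, and Esrp1, a splicing regulator of epithelial cells, at 8.10 and 25.2. The lower ones included Qk, which encodes quaking, at 4.69 and 1.05, and Esrp2 at 2.17 and 0.315.

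**Figure D5:**
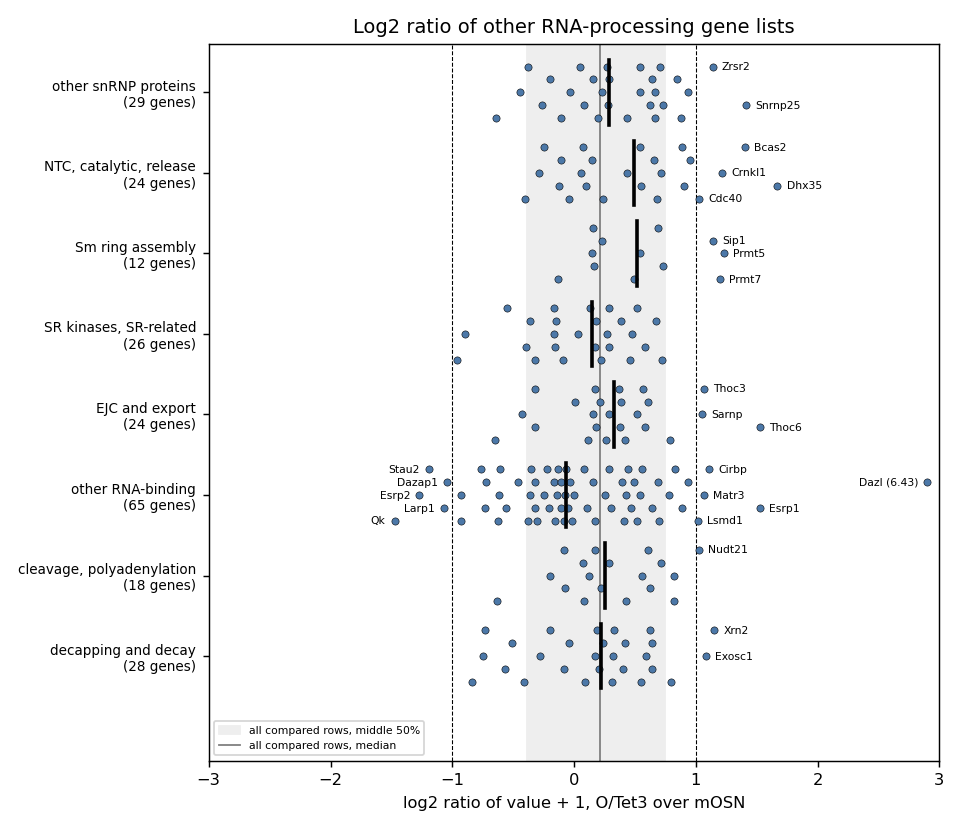
Log2 ratio of value + 1 (O/Tet3 over mOSN) of the compared genes of 8 other RNA-processing lists, 1 point per gene, with black bars for list medians, the grey band and line for the middle 50% and the median of all compared rows, and dashed lines at a 2-fold difference of value + 1. Dazl, at 6.43, is drawn at the right edge; lower genes are seen in the list of other RNA-binding proteins alone.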

How the data were processed

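RNA of sorted cells was depleted of ribosomal RNA, turned into ScriptSeq libraries and PCR-amplified, per the labels' protocols. Bowtie, Bowtie2, Cuffdiff and build mm9 are named in the submitters' processing notes without roles or versions, with annotation and strand setting not given in the sources used here. The authors deposited log2(value + 1) per gene row and library, and their log2 ratio. This form rests on the values: once undone, 99.4% of mOSN and 99.3% of O/Tet3 values above 0.01 had no more than 6 significant digits. The linear unit is not named, so values of different genes are given as listed. Sums over markers, and means and ranges across genes, describe these listed values and are not RNA levels. Total depth is unknown, and the 6 largest rows held 90.0% and 96.9% of the summed values.

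Members were selected by symbol. The members, families and lists were chosen with earlier results of these data known. Genes that are members were dropped from the other lists. Every member could be named, though 1 member and 1 marker are not reported here; of each other list, the 2 genes with the highest and the 2 with the lowest ratios among those counted as higher or lower, besides markers at 0. Counting was tested on simulated data. All 128 members matched a RefSeq symbol or synonym (GRCm38.p6), used for names and neighbours. Python 3.11.15, pandas 2.3.3 and matplotlib 3.10.9 were used. The 5hmC sample is not analysed here. With 1 library per group there were no tests. Alternatives were a pseudocount of 0.1, floors, centring, and bounds of 1.5-fold and 3-fold.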

Additional observations from a re-analysis of the deposited data

How the results depend on the processing

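Among the main results, the counts of higher and lower members stayed within 1.5 times the reported ones with a pseudocount of 0.1, with a floor of 5, with rows at or above 1 in each library, and with no pseudocount, a setting chosen after seeing the data. The median of all members lay between 0.24 and 0.32 under these and with no floor. Centring on the median of all rows gave 9 higher and 4 lower members and a median of 0.067. It subtracts 0.21 from every ratio, and Elavl4, Hnrnpab, Prpf38a, Snrpd1, Srsf2 and Srsf7 were then not counted as higher, while Elavl3 and Sf3a2 were counted as lower. A bound of 1.5-fold gave 44 higher and 6 lower members (32.3% and 19.6% of all compared rows). A bound of 3-fold gave 3 higher, Lsm5, Celf6 and Snrpg (5.76% of all compared rows), and still 2 lower. These counts follow from the bounds themselves. With a pseudocount of 0.1, Rbm7 and U2af1 were added to the higher members and Sf3a2 to the lower, and with no pseudocount Prpf31 as well. Lsm10 was not compared at the floor of 5, nor Lsm10 and Celf6 where each library had to reach 1. Centring within classes of protein length was not run, because protein lengths were not used here. Values near 1 read limit what can be said of members under a value of 1. No paired analysis was possible because there is 1 library per group.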
